A study of Mus musculus with 6 samples.

Results

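The 41 genes described here are those of blood and lymph vessel endothelium and of the growth factors that act on it: 10 receptors, 13 junction and surface proteins, 9 transcription factors, 4 other endothelial proteins and 5 growth factors. They were taken by gene symbol from the 24421 rows of the authors' deposited tables, and all 41 were found, with an adjusted p for each. The tissue was the anterior palatal mesenchyme of C57BL/6 mouse embryos at E12.5, the stage when the palatal shelves grow downward, from which the epithelium had been peeled with Dispase II. The mutant group was Wnt1Cre;Meis2f/f, in which the Wnt1Cre transgene acts on a floxed Meis2 allele, and the WT group was wildtype at the same stage and on the same strain background, each with 3 samples called biological replicates in the labels. One label field spells the mutant Wnt1Cre;Meif2f/f. The sources used here do not say whether a sample was 1 embryo or a pool. No library carries Cre alone, so an effect of the transgene and an effect of losing Meis2 cannot be told apart.

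Vessels form when the growth factor VEGF, signalling through Kdr, directs mesodermal cells to become endothelium, and they mature when angiopoietins, which many mesenchymal cells release, act on the receptor Tek. Endothelial cells hold together through junction proteins such as Pecam1 and claudin 5, and their identity depends on transcription factors of the ETS and SOX families, with Prox1 setting apart the lymphatic lineage. Wnt1Cre is active in neural crest, which forms most palatal mesenchyme and the pericytes of facial vessels, whereas endothelium of the face comes mainly from mesoderm.

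Among the vessel genes 1, Calcrl, passed the test between the genotypes. Calcrl, the calcitonin receptor-like receptor, through which adrenomedullin acts on blood and lymph vessels, was 1.35 times as abundant in the mutant as in WT when the library means were compared. It was the 1 member of 41 that rose, and 0 fell, at an adjusted p under 0.05 (DESeq2 Wald test) per the authors' deposited table of 6 libraries. Over all 14942 genes with an adjusted p, 1.75% were called higher and 1.16% lower in the mutant per the authors' deposited table, 2.9% in either direction. At an unadjusted p under 0.05 there were 3 members, Calcrl, Vwf and Fli1, and 10.5% of all genes, per the authors' deposited table. The members' log2 fold changes, mutant over WT, ran from -0.36 to 0.38 per the authors' deposited table, and 21 of 41 lay above 0, against 46.5% of all genes. Their median log2 fold change was 0.001, and that of all genes -0.01, per the authors' deposited table. Of the members, 32 of 41 had an absolute log2 fold change under 0.1, and of all genes 54.9%, per the authors' deposited table. DESeq2 had shrunk these values toward 0, more so where reads were few. In the comparison of 4 of the same libraries, 2 per genotype, Calcrl was again the 1 member called higher and 0 were lower, per the authors' deposited table. Of the members 26 of 41 lay above 0 in it, against 49.2% of all genes. Of 14548 genes 2.3% were called in this comparison, 1.31% higher and 0.99% lower in the mutant, per the authors' deposited table. An unadjusted p under 0.05 was held by 9.41% of these genes and by 1 member, per the authors' deposited table. In limma fits to the recovered reads described below, 12 of 40 members lay above 0 without WT C and 13 of 40 without mutant B. The share of all genes above 0 was not computed for these limma fits.

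**Figure D1:**
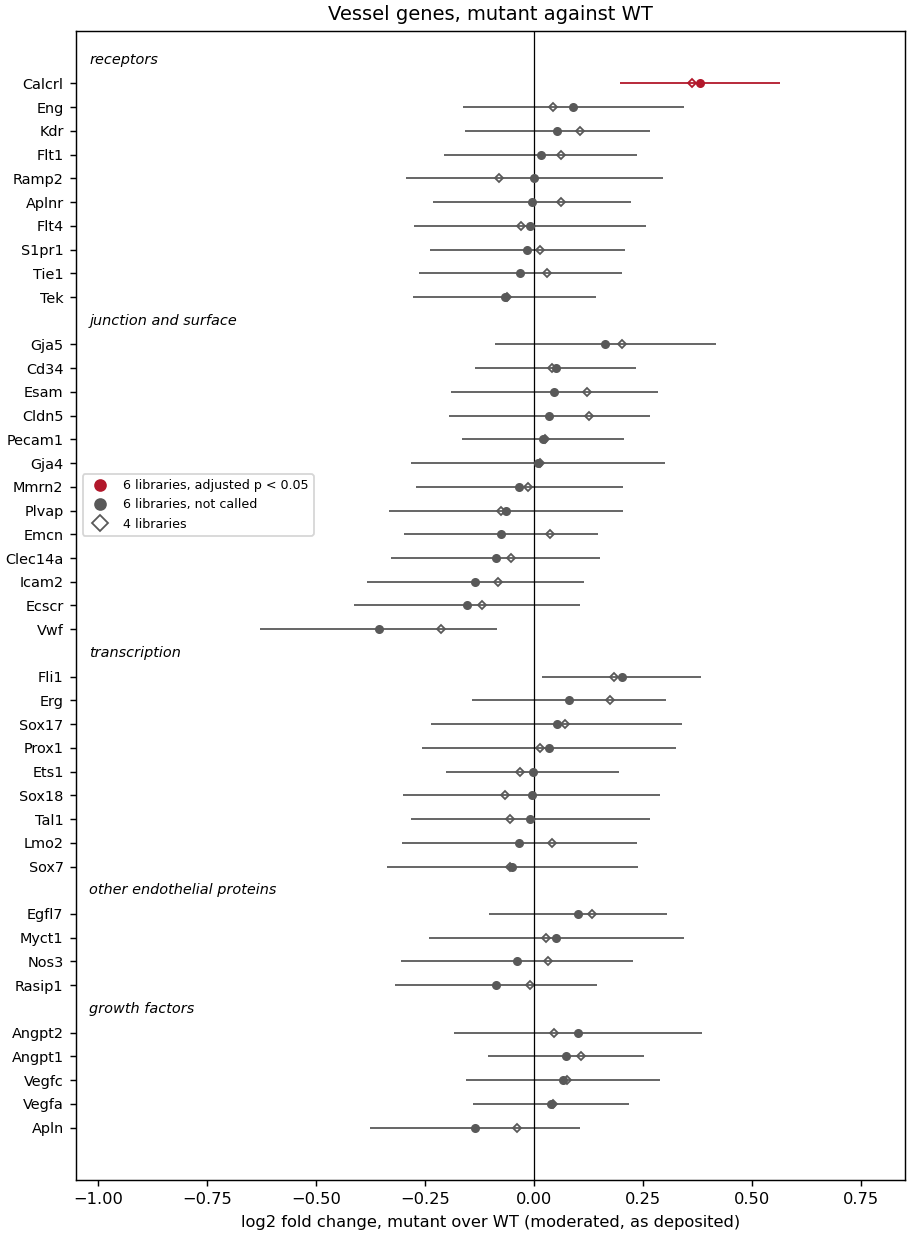
Log2 fold changes of the 41 vessel genes, mutant over WT, from the authors' deposited tables of 6 libraries (circles, with 95% intervals from the deposited SE) and of 4 of the same libraries (diamonds), by role. Calcrl, at 0.38, is the only member drawn as called, and the intervals of Vwf, at -0.36, and Fli1, at 0.20, also lie to 1 side of 0.

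**Figure D2:**
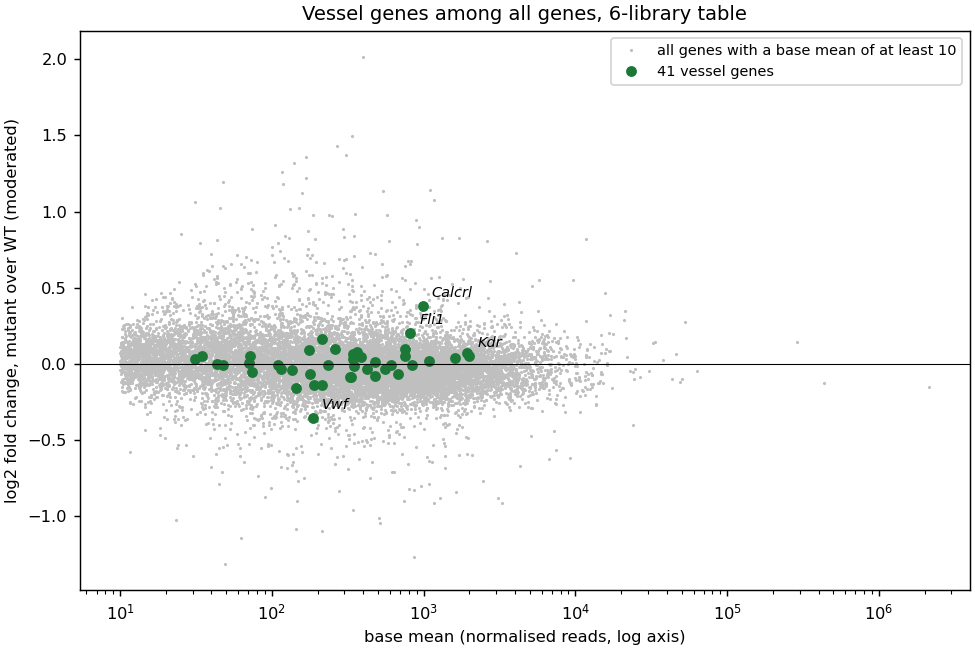
Base mean in normalised reads (log axis) against the moderated log2 fold change, mutant over WT, of every gene whose base mean reached 10 (grey) and of the 41 vessel genes (green), per the authors' deposited table of 6 libraries. The vessel genes span base means of 31.3 to 1978 and fold changes of -0.36 to 0.38.

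The deposited tables hold no values per library, but the reads of each library could be worked out for most genes. A base mean is the mean over libraries of whole reads divided by each library's size factor, and the size factors can be read from genes with a single read. Above a base mean of 100, a set of reads was admitted only if each library's normalised reads lay within 0.1 to 4 times the base mean. For 12969 of 13093 genes with a base mean of 10 to 2100, exactly 1 admitted set of 6 whole numbers gave the base means of both tables. Of the 41 members, 40 were among these genes. Angpt1 had 12 such sets and is given by its deposited values alone. The libraries carry no replicate number, so they are called A, B and C from the lowest to the highest size factor within a genotype, 0.818, 1.06 and 1.44 in mutant A to C and 0.775, 0.846 and 1.25 in WT A to C. The side taken as mutant is the one on which Meis2 is lower, and all directions below depend on it. Meis2 had 1218, 1378 and 1250.0 normalised reads in mutant A to C, against 1695, 1549 and 1526 in WT A to C. The mutant libraries were therefore below WT in Meis2 by the way the sides were chosen, so this is no independent check of the labels. The log2 change of Meis2 was -0.28 (adjusted p 0.0743) per the authors' deposited table of 6 libraries and -0.33 (adjusted p 0.0213) per the authors' deposited table of 4. The sources used here do not say which exons the floxed allele loses, and transcripts without them would still be counted.

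The libraries held RNA of endothelial cells, as the members' levels show. All 41 members had a base mean of at least 10 and 34 of at least 100, and together they made up 0.124% of the summed base means, per the authors' deposited table. Per kilobase of exon, the growth factors Vegfa and Angpt1 stood highest, at base means of 373 and 370.3 per kb, followed by Cldn5 at 243, Fli1 at 234, Aplnr at 226, Kdr at 219, Egfl7 at 210.3, Calcrl at 202 and Pecam1 at 175, from the authors' deposited table. Prox1, the transcription factor of lymphatic endothelium, was the lowest at 3.73 per kb, and Vwf was next at 11.7, from the authors' deposited table. Cdh5, which encodes VE-cadherin, the defining junction protein of endothelium, is no member and had a base mean of 979 and a log2 change of 0.050 per the authors' deposited table. Lyve1, a hyaluronan receptor of lymphatic endothelium and of some macrophages, is no member either and had a base mean of 8.64 per the authors' deposited table. In bulk samples such as these, fewer cells of a type and less RNA per cell cannot be told apart.

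A pair of start regions are shown because Calcrl is the member that passed the test and Kdr the endothelial receptor with the most reads. Each is 250 bases before to 50 after a transcription start in RefSeq (GRCm38.p6), written 5′ to 3′ on the gene's strand, with matches to AGGAAG, a form of the ETS site, and AACAAT, a form of the SOX site, in capitals. The Calcrl region is chr2:84425217-84425516 and the Kdr region chr5:75978406-75978705, both on the minus strand.
Calcrl: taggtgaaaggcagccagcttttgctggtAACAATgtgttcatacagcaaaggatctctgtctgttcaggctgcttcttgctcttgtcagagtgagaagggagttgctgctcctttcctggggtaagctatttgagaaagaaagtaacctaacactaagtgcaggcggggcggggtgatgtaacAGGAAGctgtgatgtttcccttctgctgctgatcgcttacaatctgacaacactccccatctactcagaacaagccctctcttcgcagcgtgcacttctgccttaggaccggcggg
Kdr: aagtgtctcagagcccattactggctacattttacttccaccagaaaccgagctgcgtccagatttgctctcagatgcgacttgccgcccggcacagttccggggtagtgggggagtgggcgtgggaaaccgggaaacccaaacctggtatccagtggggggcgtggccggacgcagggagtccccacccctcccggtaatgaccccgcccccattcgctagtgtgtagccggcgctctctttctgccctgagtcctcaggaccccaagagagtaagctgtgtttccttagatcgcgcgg
The Calcrl region held 1 AGGAAG and 1 AACAAT, on either strand, and 0 of TGACAG, a form of the site that Meis proteins bind. The Kdr region held 0 of the 3. The RefSeq table gave 29 such regions for 22 of the 41 members. Of these, 44.8% held AGGAAG, 13.8% AACAAT and 13.8% TGACAG, and the shares over all 32851 regions were 35.4%, 10.7% and 19.2%. The matches shown do not overlap each other, and a match describes the sequence without showing that a factor binds there.

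Among the receptors, Calcrl (chromosome 2, 84330626 to 84425411, GRCm38) had 1207, 1134 and 1057 normalised reads in mutant A to C, against 815, 835 and 871 in WT A to C. Every mutant library lay above every WT library, with a mean of 1132 ± 75.2 in the mutant and 840.2 ± 28.5 in WT (SD, n = 3 each). These values came from 987, 1205 and 1519 reads in the mutant and 631, 706 and 1090 in WT, and GENCODE annotates no other gene across it. Its log2 change was 0.38 (SE 0.0938, adjusted p 0.00307) per the authors' deposited table of 6 libraries and 0.36 (adjusted p 0.0213) per the authors' deposited table of 4. A limma fit to the recovered reads gave a log2 difference of 0.43 (95% interval 0.24 to 0.61) and an adjusted p of 0.0221. Leaving out each library in turn left it between 0.38 and 0.48, with limma adjusted p of 0.0312 to 0.0885. The call was lost without mutant A (adjusted p 0.0835), WT A (0.0885) or WT C (0.0859) in limma.

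Ramp2, the partner that makes Calcrl an adrenomedullin receptor, had 35.5, 54.6 and 39.6 normalised reads in mutant A to C and 49.1, 37.8 and 43.1 in WT A to C, so that the groups overlapped. It overlaps Vps25 on the same strand in the annotation. The other partners and ligands of Calcrl were looked up after its value was seen. Calca, which encodes calcitonin and the peptide CGRP, had 51.4, 56.4 and 59.8 normalised reads in the mutant and 27.1, 24.8 and 43.9 in WT. All 3 mutant libraries lay above WT, but its adjusted p of 0.245 missed the threshold per the authors' deposited table (log2 fold change 0.37). With 4 libraries Calca was at 0.19 (adjusted p 0.844) per the authors' deposited table. Adm, which encodes adrenomedullin, had few reads, at 15.9, 10.3 and 16.7 normalised reads in the mutant and 4.0 to 8.28 in WT. These also did not overlap, with a log2 change of 0.23 and adjusted p 0.488, and with 4 libraries 0.15 and 0.653, per the authors' deposited table. Of all genes with recovered reads, 9.05% had every mutant library above every WT library, as Calca and Adm did. Ramp3, another partner, had a log2 change of 0.02 per the authors' deposited table. The partner Ramp1 and the ligands Calcb and Adm2 had base means of 6.27, 3.04 and 0.29, under the 10 needed to recover reads. Their log2 changes were 0.041, 0.069 and -0.0014, per the authors' deposited table.

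The other 9 receptors had log2 fold changes between -0.07 and 0.09 per the authors' deposited table, and none passed the test. Kdr, the main signalling receptor for VEGF (chromosome 5, 75932827 to 75978458), had 1922, 2266 and 1873 normalised reads in mutant A to C, against 1809, 2283 and 1712 in WT A to C. Both groups had their highest value in library B, and they overlapped over most of their range. The log2 fold change of Kdr was 0.054 (SE 0.108, adjusted p 0.936) per the authors' deposited table, with a limma interval of -0.18 to 0.32 on the log2 scale. Aplnr, the apelin receptor of sprouting and venous endothelium (chromosome 2, 85136225 to 85139923), had 805, 927 and 774 normalised reads in the mutant and 702, 1012 and 799 in WT. The mutant values lay within the WT range, and its adjusted p was 0.996 per the authors' deposited table. Tek, the angiopoietin receptor, had 593 to 727 normalised reads in the mutant and 646 to 766 in WT. Its relative Tie1 had 501 to 612 in the mutant and 486 to 679 in WT. Flt1, a VEGF receptor that also acts as a decoy, had 419 to 509 in the mutant and 431 to 533 in WT. Flt4, the VEGF-C receptor of lymphatic endothelium, had 177 to 282 in the mutant and 207 to 274 in WT. All 4 of these receptors overlapped between the genotypes, as did the remaining pair of receptors. Eng, a coreceptor for TGF-beta family ligands that overlaps Fpgs on the opposite strand, had 166 to 203 in the mutant and 151 to 181 in WT. S1pr1, a receptor for sphingosine 1-phosphate, had 334 to 353 in the mutant and 305 to 379.6 in WT.

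Of the 13 junction and surface genes none passed the test, and their median log2 fold change was -0.03 (range -0.36 to 0.16) per the authors' deposited table. Pecam1, the adhesion molecule CD31 (chromosome 11, 106654217 to 106750628), had 1046, 1175 and 1082 normalised reads in mutant A to C and 1091, 1156 and 1008 in WT A to C. The groups overlapped, with a limma log2 difference of 0.02 (95% interval -0.17 to 0.21). Cd34, a sialomucin of endothelial and haematopoietic progenitor cells, had 747, 793 and 779.8 normalised reads in the mutant and 711, 747 and 772 in WT, and a log2 change of 0.05 per the authors' deposited table. It overlaps the antisense gene Gm16897. Emcn, a sialomucin of veins and capillaries, had 451 to 468 in the mutant and 443 to 584 in WT, and Mmrn2, a matrix protein of endothelium, 362 to 481 in the mutant and 387 to 506 in WT. Among the tight junction genes, Cldn5 had 328 to 384 in the mutant and 300.4 to 383 in WT, and Esam 367 to 425 in the mutant and 328 to 458 in WT. Clec14a, a surface lectin of endothelium, had 280.3 to 353 in the mutant and 299.6 to 395 in WT. Plvap, which forms the diaphragms of fenestrae and overlaps Gtpbp3 on the opposite strand, had 132 to 200.4 in the mutant and 161 to 202 in WT. The gap junction gene Gja4 had 59.1 to 86.6 in the mutant and 59.1 to 87.5 in WT, so that all these ranges overlapped. The sources used here do not say whether reads were counted by strand. Overlaps with other genes are given by whole gene span, and whether exons overlap was not examined. Reads of an overlapping gene may therefore be part of a member's count, which was not tested.

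Vwf, the von Willebrand factor that tethers platelets (chromosome 6, 125546774 to 125686679), stood lowest among the members' fold changes. It had 121, 167 and 173 normalised reads in mutant A to C, against 196, 278 and 189 in WT A to C. All mutant libraries lay below all WT libraries. Its log2 change was -0.36 (SE 0.138, adjusted p 0.200) per the authors' deposited table of 6 libraries, and -0.21 (adjusted p 0.806) per the authors' deposited table of 4. Ecscr, a surface protein of endothelial sprouting (chromosome 18, 35713086 to 35722356), had 144, 139 and 120.3 normalised reads in the mutant and 156, 158 and 150.2 in WT. These groups also did not overlap, while the log2 fold change of -0.15 had an adjusted p of 0.791 per the authors' deposited table. Icam2, an adhesion molecule, had 171, 189 and 173 in the mutant and 179, 224 and 199 in WT, with a log2 change of -0.13 per the authors' deposited table. Gja5, the arterial gap junction protein connexin 40, had 254, 237 and 203 in the mutant and 167, 231 and 197 in WT, with a log2 change of 0.16 per the authors' deposited table. Both overlapped between the genotypes, and the annotated span of Gja5 overlaps that of Gpr89 on the opposite strand.

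**Figure D3:**
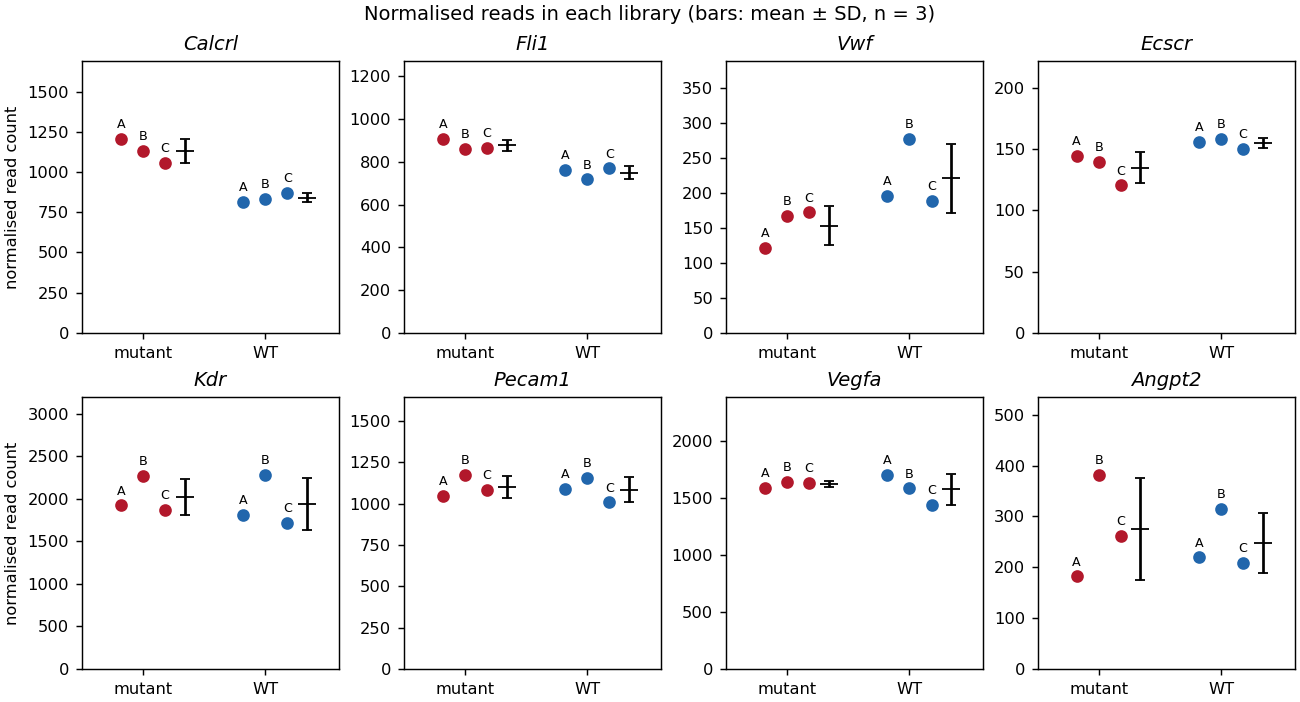
Normalised reads of 8 vessel genes in each library, mutant left of WT, with bars at the mean ± SD (n = 3 libraries each) and letters for the libraries. Calcrl and Fli1 are higher in all 3 mutant libraries, Vwf and Ecscr are lower in all 3, and Kdr, Pecam1, Vegfa and Angpt2 overlap.

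Among the 9 transcription factors none passed the test, with a median log2 fold change of -0.003 per the authors' deposited table. Fli1, an ETS factor of endothelial and blood cells (chromosome 9, 32422204 to 32542861), had 909, 863 and 864 normalised reads in mutant A to C, against 764, 718 and 769 in WT A to C. The mutant libraries all lay above WT, with means of 878 ± 26.2 in the mutant and 751 ± 28.4 in WT (SD, n = 3 each). Its log2 fold change was 0.20 (SE 0.093) and its adjusted p of 0.383 missed the threshold per the authors' deposited table, as did 0.635 per the authors' deposited table of 4 libraries. Erg, the closest relative of Fli1, had 336 to 406 normalised reads in the mutant and 322 to 377 in WT, and Ets1, another ETS factor, 589 to 627 in the mutant and 581 to 673 in WT. Sox7, Sox17 and Sox18, which act together in vessel formation, had log2 changes of -0.049, 0.052 and -0.0056 per the authors' deposited table. Tal1 and Lmo2, partners in a complex of blood and endothelial progenitors, were at -0.0081 and -0.034 per the authors' deposited table. All of these factors overlapped between the genotypes, with 43.1 to 89.3 normalised reads a library for the 3 SOX genes in the mutant and 40.2 to 91.7 in WT. Prox1 had 35.5, 29.2 and 32.0 normalised reads in the mutant and 34.9, 26.0 and 30.4 in WT, from 22 to 46 reads a library. At this depth its limma interval ran from -0.41 to 0.58 on the log2 scale.

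The 4 other endothelial proteins were Egfl7, a secreted matrix protein, Rasip1, needed for vessel lumens, Nos3, the endothelial nitric oxide synthase, and Myct1. Egfl7 had 779, 841 and 732 normalised reads in mutant A to C, against 651, 813 and 704 in WT A to C. Its groups overlapped, its log2 fold change was 0.10 per the authors' deposited table, and the annotation places Agpat2 across part of it on the opposite strand. Rasip1 had 272 to 368 in the mutant and 337 to 360.2 in WT, Nos3 124 to 145 in the mutant and 117 to 150.2 in WT, and Myct1 30.6 to 42.3 in the mutant and 25.6 to 39.0 in WT.

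The growth factors, which endothelial and other cells make, gave 0 calls among 5, with a median log2 fold change of 0.07 per the authors' deposited table. Vegfa, the principal VEGF (chromosome 17, 46016993 to 46032369), had 1589, 1638 and 1635 normalised reads in mutant A to C and 1703, 1584 and 1437 in WT A to C. The mutant values lay within the WT range, and the limma interval was -0.14 to 0.23 on the log2 scale. Angpt1, the activating ligand of Tek (chromosome 15, 42424723 to 42676977), had a base mean of 1927 and a log2 change of 0.07 (SE 0.0909, adjusted p 0.885) per the authors' deposited table. Angpt2, which opposes Angpt1 in many settings, had 182, 382 and 262 normalised reads in the mutant and 219, 315 and 209 in WT. Its spread within the mutant, with an SD of 101, exceeded the difference between the group means. The annotated span of Angpt2 overlaps that of Mcph1 on the opposite strand. Apln, the apelin peptide made by tip cells, had 204, 190.0 and 209 in the mutant and 227, 248 and 206 in WT, with a log2 change of -0.14 per the authors' deposited table. Vegfc, the lymphangiogenic VEGF, had 326 to 375 in the mutant and 315 to 369 in WT.

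Over the members with recovered reads, the genotypes did not overlap for 4 of 40, which is 10%, against 18% of all 12969 genes. Calcrl and Fli1 were above WT in every mutant library, as were 9.05% of all genes, and Vwf and Ecscr below, as were 8.94%. On the scale of log2(normalised reads + 1), the difference between the group means was set beside the larger of both SDs. It was the smaller of these for 34 of 40 members, or 85%, against 67.7% of all genes. Of the limma 95% intervals, 36 of 40 lay within a 1.5-fold change in either direction and all 40 within a 2-fold change. Limma called 1 of the 40 members, Calcrl, and 2.46% of all genes.

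Endothelial members differed between libraries of 1 genotype. The 36 members that are not growth factors were summed. Their normalised reads came to 14619.9, 15648 and 14157 in mutant A to C, against 13831, 15826 and 13493 in WT A to C. Library B was the highest of its genotype in both groups, and the ratio of the mean sums, mutant over WT, was 1.03. The highest mutant library was B for 19 of the 36 genes and the highest WT library was B for 23, against 4967 and 5027 of 12969 for all genes. For the 13 junction and surface genes these counts were 8 in the mutant and 12 in WT, and for the 9 transcription factors 2 in the mutant and 2 in WT. Epithelial markers were likewise highest in library B, for 10 of 15 genes in the mutant and 14 of 15 in WT. Both B libraries are those absent from the 4-library table.

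**Figure D4:**
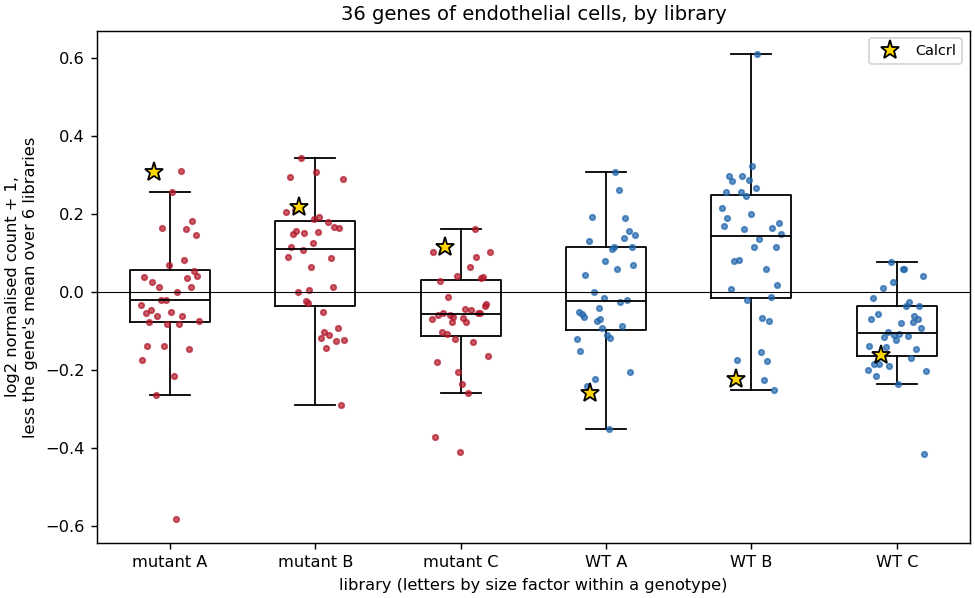
Log2 of normalised reads + 1 in each library for the 36 members that are not growth factors. Each gene's mean over the 6 libraries is subtracted, with boxes at the quartiles and each gene a point. The medians are highest in mutant B, at 0.11, and WT B, at 0.14, while Calcrl (star) is above 0 in all 3 mutant libraries and below 0 in all 3 WT libraries.

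A wider list of other vessel genes held 55 symbols, some of them older names of the same gene, and 51 were found. Of the genes found, 49 were measured, with a base mean of at least 10. Of these 1 rose and 1 fell per the authors' deposited table of 6 libraries, where the median log2 change was 0.014, while of all genes 1.75% were called higher and 1.16% lower. At an unadjusted p under 0.05 (DESeq2 Wald test) there were 9 of the 49, against 10.5% of all genes, per the authors' deposited table of 6 libraries. With 4 libraries 0 were called and 8 had an unadjusted p under 0.05, against 2.3% and 9.41% of all genes, per the authors' deposited table. Nr2f2, which encodes the venous regulator COUP-TFII and is also a factor of mesenchyme, had 646, 644 and 561 normalised reads in mutant A to C, against 431, 415 and 439 in WT A to C. The groups did not overlap, and its log2 fold change was 0.45 (adjusted p 0.00113) per the authors' deposited table and 0.38 (adjusted p 0.0538) per the authors' deposited table of 4 libraries. Ccbe1, a secreted protein needed to activate VEGF-C for lymphatic growth, had 35.5, 33.9 and 29.2 normalised reads in the mutant and 64.6, 80.4 and 49.5 in WT. It fell by 0.48 on the log2 scale (adjusted p 0.0443) per the authors' deposited table, and was at -0.24 (adjusted p 0.615) with 4 libraries per the authors' deposited table. Of the 45 such genes with recovered reads, 12, or 26.7%, did not overlap between the genotypes, 7 with the mutant above and 5 with it below, against 18% of all genes, 9.05% above and 8.94% below. Those with the highest base means, Nrp2, Cxcl12, Nrp1 and Cd93, had log2 changes of 0.026, -0.082, -0.11 and -0.0015 per the authors' deposited table.

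Markers of some other cell types also differed by genotype, and their sums are given over the genes with recovered reads. The macrophage list held 14 symbols, with Emr1 an older name of Adgre1, and 13 were measured. These 13 summed to 1232 to 1415 normalised reads in the mutant and 819 to 1006 in WT, a ratio of mean sums of 1.45. Of them 3, Csf1r, Mrc1 and Adgre1, rose, by 0.57, 0.49 and 0.48 on the log2 scale, while of all genes 1.75% were called higher, per the authors' deposited table. Adgre1 was not called with 4 libraries, at 0.29 (adjusted p 0.451), per the authors' deposited table. The muscle markers summed to 2389 to 7015 in the mutant and 1026 to 1525 in WT, and mutant A held the most. Of 17 muscle markers measured 11 rose, against 1.75% of all genes, and with 4 libraries 5 of 17 did, against 1.31%, per the authors' deposited table. The neuronal markers summed to 409 to 459 in the mutant and 640.4 to 1137 in WT, and WT B was the highest WT library for 8 of 8 genes. Of 8 neuronal markers measured 4 fell, against 1.16% of all genes, with a median log2 change of -0.37, per the authors' deposited table. With 4 libraries, which leave out mutant B and WT B, 1 of 7 fell, against 0.99%, and the median was -0.18, per the authors' deposited table. Pericyte and mural markers with recovered reads, 7 genes, had sums of 1438 to 1532 in the mutant and 1249.8 to 1543 in WT. Pdgfrb and Notch3 are not in these sums, as their base means of 4371 and 2450 lay above the limit of 2100. Their log2 changes were 0.13 and 0.12 per the authors' deposited table. Of 9 mural markers measured, 5 lay above 0 and 4 below, and 1 rose, against 1.75% of all genes, per the authors' deposited table. It was Acta2, the smooth muscle actin, by 0.71 on the log2 scale per the authors' deposited table. Epithelial markers, at 1706 to 2202 in the mutant and 1574 to 2323 in WT, and erythroid markers, at 1461 to 1541 in the mutant and 1349 to 1959.9 in WT, overlapped between the genotypes. The embryonic globin gene Hbb-y had a base mean of 749 per the authors' deposited table. Hbb-bs, Hbb-bt, Hba-a1 and Hba-a2, the adult globin genes, are listed at 0 there. Whether these 0 values reflect absent transcripts or the way reads were counted was not tested. Megakaryocyte markers, which belong to cells that also make Vwf, gave 0 calls among 3 measured, and all 3 lay above 0, per the authors' deposited table. Their sums, 127 to 159 in the mutant and 108 to 125 in WT, did not overlap, with a ratio of mean sums of 1.25. Taken singly, 0 of these 3 genes had groups that did not overlap. The part of these cell types in the values of Calcrl, Fli1, Nr2f2 and Ccbe1 was not tested. For the vessel members that are not growth factors the ratio of mean sums was 1.03.

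**Figure D5:**
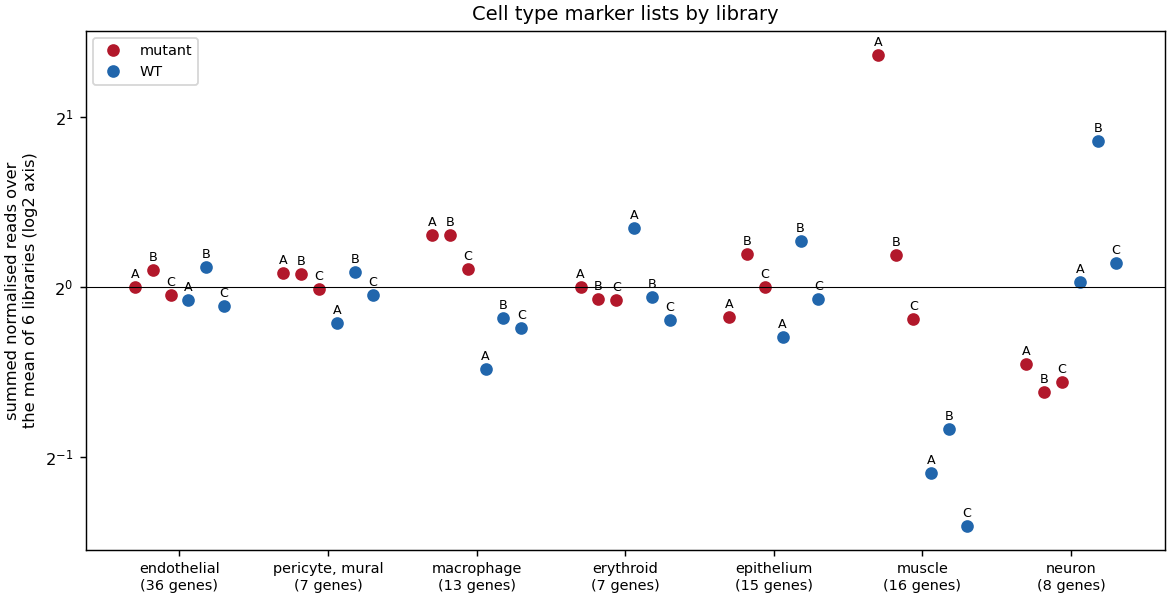
Summed normalised reads of 7 gene lists in each library, over the mean of the 6 libraries (log2 axis), mutant left of WT and lettered. The endothelial sums of both genotypes interleave, the macrophage and muscle sums are higher in all 3 mutant libraries, and the neuronal sums are lower in all 3.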

How the data were processed

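Per the labels' protocols, RNA was amplified after reverse transcription and made into TruSeq RNA v2 libraries, and amplification adds variation to weakly expressed genes. The submitters' processing notes name featureCounts, HISAT2 and DESeq2, with GRCm38 and mm10, with versions, settings and strandedness not given in the sources used here. The authors deposited result tables of DESeq2. The base mean is a signal, the mean of normalised counts, as deposited by the authors. Fold changes with their errors are on the log2 scale, the Wald statistic is a score, and the p-value and adjusted p-value are those of the Wald test, all as deposited by the authors. A planned description of reads per library used whole numbers solved from base means written to 15 digits (4 libraries) and 10 digits (6 libraries). For 5939 of 5939 genes whose absolute deposited log2 value reached 0.1, the sign of the deposited value and of the ratio of recovered means was the same. The third table repeats rows of the first and was not used.

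The call rule was an adjusted p under 0.05. Limma 3.58.1 (R 4.3.3, trend) was fitted to log2(reads / size factor + 1) of 12969 genes, an alternative chosen after seeing the data, with each library left out in turn. Its p-values, like the authors', set the difference between the genotypes against the spread between these samples, which may be single embryos or pools. With 3 against 3 libraries an exact permutation test of 1 gene cannot go below 0.1, so none was run. Other alternatives were the 4-library table, centring on the median gene, and filters on base mean with p adjusted again. Exon lengths and overlapping genes, the latter by whole gene span, came from GENCODE M21 (GRCm38). The members and gene lists were chosen with earlier results of these data known. Given in full are members called in either table, the 8 with the lowest p and the 8 with the highest base mean.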

Additional observations from a re-analysis of the deposited data

How the results depend on the processing

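Calcrl was the 1 member called per the authors' deposited tables of 6 and of 4 libraries, after centring on the median gene (a shift of -0.012 on the log2 scale), among genes of base mean 100 or more, with no filter, and by limma on all 6 libraries. Its adjusted p over all these alternatives and the leave-one-out fits ran from 0.00188 to 0.0885. In the 6 limma fits that each left out 1 library, chosen after seeing the data, the number of members called ran from 0 to 1, with 0 without mutant A, WT A or WT C. The members above 0 ran from 12 (without WT C) to 26 (without WT B) of 40, with 13 without mutant B, so that the near-even split depends on single libraries. Their median log2 difference in these fits stayed between -0.045 and 0.056. Of 147 values of single genes under alternatives, 133 kept their direction and their side of the threshold, 3 lost the call (Calcrl) and 11 changed sign. The sign changes were of genes whose log2 fold change with all 6 libraries was near 0 per the authors' deposited table. Aplnr was at 0.063 in the 4-library table as deposited by the authors, 0.0079 after centring, 0.0076 by limma on 6 libraries and -0.11 (without WT A) to 0.15 (without WT B) in leave-one-out fits. Over the leave-one-out fits Kdr ran from -0.017 to 0.19, Pecam1 from -0.030 to 0.068 and Vegfa from -0.019 to 0.10. The cause was not tested. No paired analysis was possible because the deposited comparisons carry no replicate number for any library. Depth limits the members with the fewest reads, Prox1, Myct1 and Ramp2, at base means of 31.3, 34.9 and 43.3 in the authors' table as deposited.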
